A study of Mus musculus with 35 samples.

Results

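The mitosis and spindle checkpoint genes described here were 50 genes chosen by symbol from a list of regulators and machinery of cell division. Each matched exactly 1 of the 55487 gene rows in the tables. They were sorted by role into 9 mitotic kinases, 5 cyclins and CDC25 phosphatases, the transcription factor Foxm1, 8 kinesins, 10 kinetochore and centromere genes, 4 genes of anaphase and exit, 7 of the spindle and cytokinesis, and 6 of chromosome structure. RNA-Seq was performed on 27 libraries of cultured adult mouse cardiac fibroblasts (CFs) and on 8 mouse hearts. The CFs were primary cells of adult mice that had adhered to collagen-coated plates and were grown with serum. They received a control siRNA (Scrambled) or 1 of 2 siRNAs against IAMP (siR-1 and siR-2), a micropeptide encoded by 4930523C07Rik, and were left untreated or exposed to IL-17 or TGF-β, with 3 libraries in each of the 9 groups. For IL-17 the labels give 24 h of siRNA followed by 24 h of the cytokine, while durations for the other groups are not given in the sources used here. The libraries of the TGF-β series are labelled only as adult fibroblasts. The hearts came from adult C57BL/6 mice, 4 IAMP-KO and 4 heterozygous controls (HET), the line having been made by a CRISPR-Cas9 frameshift, so that the controls carry 1 edited allele.

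Entry into mitosis is driven by CDK1 bound to cyclin A or cyclin B, which CDC25 phosphatases activate and which Polo-like and Aurora kinases assist. Kinesins and microtubule-binding proteins then build the spindle, kinetochores attach chromosomes to it, and the checkpoint proteins BUB1B, MAD2L1 and TTK hold back CDC20 until every chromosome is attached. CDC20 and the ubiquitin-conjugating enzyme UBE2C then act with the anaphase-promoting complex to destroy securin (Pttg1) and cyclin B, which frees separase (Espl1) to cut cohesin. In the adult heart most cardiomyocytes have left the cell cycle, while fibroblasts placed in serum divide.

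Total estimated counts were 104139670 to 119232309 in the CF libraries, and heart libraries held 23497027 to 23857313 counts. Levels are given as CPM, counts scaled to library size and by the TMM factors within each table, and a gene was called at a Benjamini-Hochberg adjusted p of at most 0.05 in the edgeR quasi-likelihood test over all genes tested. IAMP RNA was 22 to 25.8 CPM in the untreated Scrambled libraries, 2.51 to 3.51 after siR-1 and 1.76 to 1.88 after siR-2, and it was lower with both siRNAs under IL-17 and TGF-β too. In hearts it was 15.9 to 18.8 CPM in HET and 15.2 to 17.3 in KO, which does not check the genotype because a frameshift need not lower the RNA. CFs held fibroblast markers at high levels (Col1a1 3108 to 7705 CPM), and Myh6, the defining myosin of adult cardiomyocytes, was at most 0.0978 CPM in them against 15230 to 17792 in hearts. Of the other cardiomyocyte markers, Actc1, Myl2 and Ttn were at most 0.706 CPM in CFs, while Tnnt2 was at 2.89 to 97.6. The endothelial marker Cdh5 was at 15.9 to 42.9 CPM in CFs and the macrophage marker Lyz2 at 35.3 to 116. Nothing in the labels says that the 3 libraries of a CF group came from separate animals, so p-values measure the spread between these libraries.

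Promoters of 7 members are shown, 6 that fell with both siRNAs and Pttg1, which rose after siR-2. They are the 100 bases before the RefSeq gene start (GRCm38.p6), written 5′ to 3′ on the gene's strand. The Pttg1 window lies inside the gene as GENCODE vM21 places it, chr11:43420250-43426251, so bases before that start are not shown. Capitals mark the cell cycle homology region (CHR, TTTGAA or TTCGAA) and the CCAAT box, each on either strand, which are known from promoters of genes expressed in G2 and mitosis. The windows are Cdk1 at chr10:69352913-69353012 on the minus strand, Kif11 at chr19:37376282-37376381 on the plus strand, Cdc20 at chr4:118437344-118437443 on the minus strand, Ube2c at chr2:164769829-164769928 on the plus strand, Espl1 at chr15:102296193-102296292 on the plus strand, Top2a at chr11:99024190-99024289 on the minus strand and Pttg1 at chr11:43425982-43426081 on the minus strand.
Cdk1: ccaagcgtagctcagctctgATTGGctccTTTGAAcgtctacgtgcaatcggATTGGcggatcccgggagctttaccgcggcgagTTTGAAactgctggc
Kif11: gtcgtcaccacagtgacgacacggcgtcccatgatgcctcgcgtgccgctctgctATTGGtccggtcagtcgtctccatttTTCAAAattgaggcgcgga
Cdc20: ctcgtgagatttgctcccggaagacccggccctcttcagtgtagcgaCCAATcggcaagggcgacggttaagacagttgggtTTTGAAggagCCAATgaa
Ube2c: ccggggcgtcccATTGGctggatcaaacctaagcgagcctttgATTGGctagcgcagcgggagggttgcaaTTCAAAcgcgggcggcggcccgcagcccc
Espl1: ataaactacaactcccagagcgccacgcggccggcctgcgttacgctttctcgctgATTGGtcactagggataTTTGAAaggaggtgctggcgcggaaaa
Top2a: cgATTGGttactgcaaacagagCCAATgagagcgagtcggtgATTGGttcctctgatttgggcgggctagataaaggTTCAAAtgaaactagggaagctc
Pttg1: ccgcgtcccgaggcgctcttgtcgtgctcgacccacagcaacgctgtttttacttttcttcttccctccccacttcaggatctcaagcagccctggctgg
The 6 were picked from members that hold both motifs, and the Pttg1 window held neither, so the set shows no contrast between genes that fell and rose.

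Promoters of 41 of the 50 members were matched by symbol, those of Aurkb, Ccna2, Cdc25c, Foxm1, Kif20a, Spc24, Incenp, Tpx2 and Smc4 being the 9 without an entry. Over the whole window of 250 bases before to 50 after the start, 29 of the 41 held a CHR (70.7%), against 5254 of 27025 promoters in the table (19.4%). A CCAAT box stood in 29 of the 41 (70.7%) and in 37.9% of all promoters, and both motifs stood in 25 (61%) and in 7.7%. The 8 members with neither were Melk, Kif18a, Nuf2, Mad2l1, Birc5, Pttg1, Nusap1 and Ncaph, and each of them but Pttg1 was lower after both siRNAs, Nuf2 having the largest siR-2 fall of the 50. The whole windows of Kif14, Kif2c, Kif4 and Pttg1 lie inside the genes as GENCODE vM21 places them. Bases before those GENCODE starts were therefore not searched. These matches are descriptions of letters, and the 2 motifs can share at most 1 base. The members were chosen as genes of cell division, the class whose promoters these motifs are known from. Their shares are therefore no test of the siRNA effects.

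In untreated CFs, all 50 members were lower after siR-1 than with Scrambled, against 20.4% of all genes tested. With siR-2, 49 of 50 were lower against 25.0% of all genes, and 1, Pttg1, was higher against 24.4%. The median log2 fold change of the members was -0.72 after siR-1 and -1.59 after siR-2, while that of all genes was -0.0161 and -0.0201. The summed level of the 50 genes was 3910 ± 13.7 CPM in Scrambled libraries, 2356 ± 87.7 after siR-1 and 1303 ± 48 after siR-2 (SD, n = 3). In 49 of 50 genes every siR-2 library lay below every siR-1 library and every siR-1 library below every Scrambled one. The share of all genes with this order was not computed, so the count has no background. In a culture, fewer dividing cells and less of these RNAs per cell cannot be told apart.

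**Figure D1:**
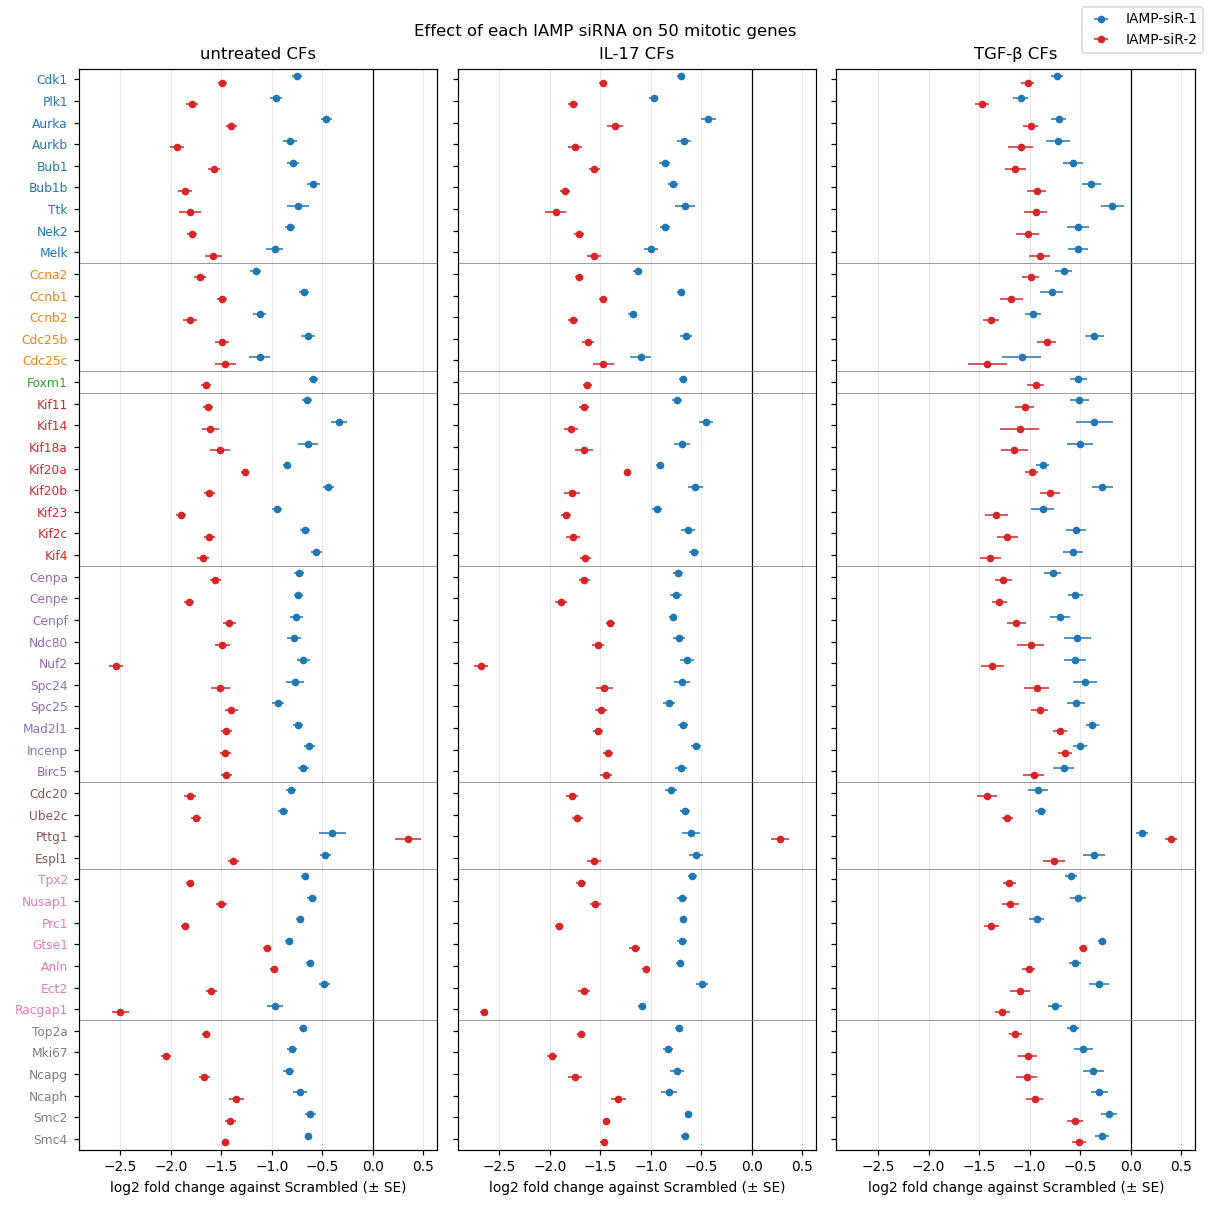
Log2 fold change against Scrambled of each of the 50 genes (rows, coloured and ruled off by role) after siR-1 (blue) and siR-2 (red) in untreated, IL-17 and TGF-β CFs, bars giving ± SE from edgeR, 3 libraries a group. Points lie left of 0 for every gene but Pttg1, and in untreated CFs the siR-2 points centre on -1.59 and the siR-1 points on -0.72.

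Among the 9 mitotic kinases, each was lower with both siRNAs. Cdk1, the kinase that starts mitosis, was at 108, 106 and 109 CPM in Scrambled libraries, at 63.4, 66 and 63.7 after siR-1 and at 40.6, 35.3 and 39.5 after siR-2. The 3 groups did not overlap, and the log2 fold changes were -0.75 ± 0.0458 and -1.49 ± 0.0468 (SE). Plk1, which acts at centrosomes and kinetochores, was at 94.1, 88.7 and 92 CPM, then 45.9, 45.7 and 50, then 28.8, 24 and 26.7. Aurkb, the kinase of the chromosomal passenger complex, was at 29.2, 27.1 and 26.4 CPM with Scrambled, 16.2, 14.6 and 15.8 after siR-1 and 6.83, 7.36 and 7.35 after siR-2. Its fall after siR-2 (-1.94) was the largest of the kinases. Bub1b, which encodes the checkpoint protein BUBR1, was at 57, 56.1 and 53.8 CPM, at 37.2, 34.5 and 39.1, and at 16.3, 13.6 and 16.2. It differed most of the kinases between the siRNAs, by -1.27 ± 0.0682 for siR-2 against siR-1.

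The cyclins and CDC25 phosphatases held the largest falls after siR-1. Ccna2, cyclin A, was the member with the largest change, from 127, 116 and 125 CPM to 56.2, 53.6 and 55.4 (log2 fold change -1.16 ± 0.056), and after siR-2 it was at 41.4, 34.5 and 36.3. Ccnb2, a B-type cyclin, went from 68.1, 69.2 and 69.4 CPM to 31.7, 30.7 and 33 and, after siR-2, to 19.4, 17.3 and 22.1. No library of one group overlapped another for either cyclin. Ccnb1, the other B-type cyclin, was at 118, 111 and 122 CPM, at 71.6, 70.8 and 77.1, and at 42.4, 38.9 and 43.7. The median of the 5 genes was -1.12 after siR-1 and -1.49 after siR-2, so siR-2 added less here than in the kinases, whose medians were -0.79 and -1.79, a difference between roles that was not tested. Cdc25b, a phosphatase that activates CDK1, was at 31.7, 32 and 30.9 CPM, 19.7, 20.8 and 20, and 11.7, 9.94 and 12. Foxm1, the transcription factor of many G2 and mitotic genes, was at 75.8, 75.5 and 71.8 CPM, 48.5, 47.9 and 51.8, and 24.7, 23 and 23.4, a log2 fold change of -0.59 and -1.65.

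Each of the 8 kinesins was lower with both siRNAs, with medians of -0.64 and -1.62. Kif11, the motor that pushes spindle poles apart, was at 73.4, 74.1 and 70.5 CPM, 46.8, 45.1 and 47.5, and 24.9, 22.4 and 23.2. Kif20a, a motor of cytokinesis, was at 139, 133 and 140 CPM, 75.2, 72.9 and 80.2, and 58.3, 56.9 and 55.5. Among kinesins the siRNAs lay closest for Kif20a (-0.42 for siR-2 against siR-1) and farthest apart for Kif14 (-1.28), which had the smallest fall of all 50 genes after siR-1 (-0.33 ± 0.0797). Kif20a shares exon bases with Cdc23 on the opposite strand, and whether the authors counted by strand is not given in the sources used here. In all, 12 members share exon bases with a protein-coding gene, Ccna2, Cdc25b, Cdc20, Ube2c and Prc1 with one on the opposite strand and Foxm1 with Tex52 and Gm44596 on the same strand.

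Kinetochore and centromere genes fell in all 10 cases with each siRNA, and their medians were -0.74 and -1.48. Cenpa, the histone H3 variant of centromeres, was at 60.1, 58.1 and 60.7 CPM, 35.2, 36.6 and 36.4, and 21.4, 18.7 and 20.6. Cenpe, a kinetochore motor, was at 99.7, 101 and 93.8 CPM, 60.5, 55.8 and 60.5, and 28, 27.1 and 28.7. In both genes the 3 groups were separate. Ndc80 and Nuf2 encode partners in 1 microtubule-binding complex. Ndc80 was at 28.6, 26.2 and 29 CPM, 16.6, 15.5 and 16.7, and 10.9, 8.94 and 9.91. Nuf2 was at 48.8, 50.5 and 53.1 CPM, 32.5, 30.9 and 31.3, and 9.79, 8.5 and 7.96, so that its siR-2 change of -2.54 ± 0.069 was the largest of the 50 genes while its siR-1 change (-0.69) lay near the median. Spc24 and Spc25, the remaining subunits of that complex, changed by -1.51 and -1.40 after siR-2. Mad2l1, the checkpoint protein that binds CDC20, was at 60.2, 58.3 and 63.4 CPM, 36.9, 35.8 and 36.1, and 23.8, 21.1 and 21.8.

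Of the 4 genes of anaphase and exit, 3 fell with both siRNAs. Cdc20 was at 103, 97.8 and 110 CPM, 60.6, 54.4 and 62.2, and 30.8, 29.4 and 28.4 (log2 fold change -0.81 and -1.81). Ube2c was at 58.7, 56 and 61 CPM, 30.6, 31.7 and 32.3, and 17.7, 16.7 and 17.9. Espl1, separase, was at 33.1, 36 and 34.2 CPM, 23.4, 25.9 and 25.4, and 13.7, 12.9 and 13.1. Pttg1, securin, the inhibitor of separase, departed from the rest. It was at 11.3, 10.8 and 12.9 CPM with Scrambled, 8.04, 7.32 and 11.2 after siR-1 and 14.7, 14.5 and 15.6 after siR-2. Its siR-1 and Scrambled libraries overlapped, and its siR-2 libraries lay above both. The siR-1 change was -0.40 ± 0.13 (edgeR adjusted p = 0.025), the siR-2 change 0.35 ± 0.128 (adjusted p = 0.0336), and siR-2 against siR-1 0.75 ± 0.13 (adjusted p = 0.000234). Both calls against Scrambled rested on single libraries: the siR-2 call was lost without Scrambled replicate 1 or 2 or any 1 siR-2 library (adjusted p 0.0625 to 0.125), and with library totals as the scale (0.076). The siR-1 call was lost without Scrambled replicate 3, siR-1 replicate 1 or siR-1 replicate 2 (0.0963 to 0.107), and with these groups fitted alone (0.0549).

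**Figure D2:**
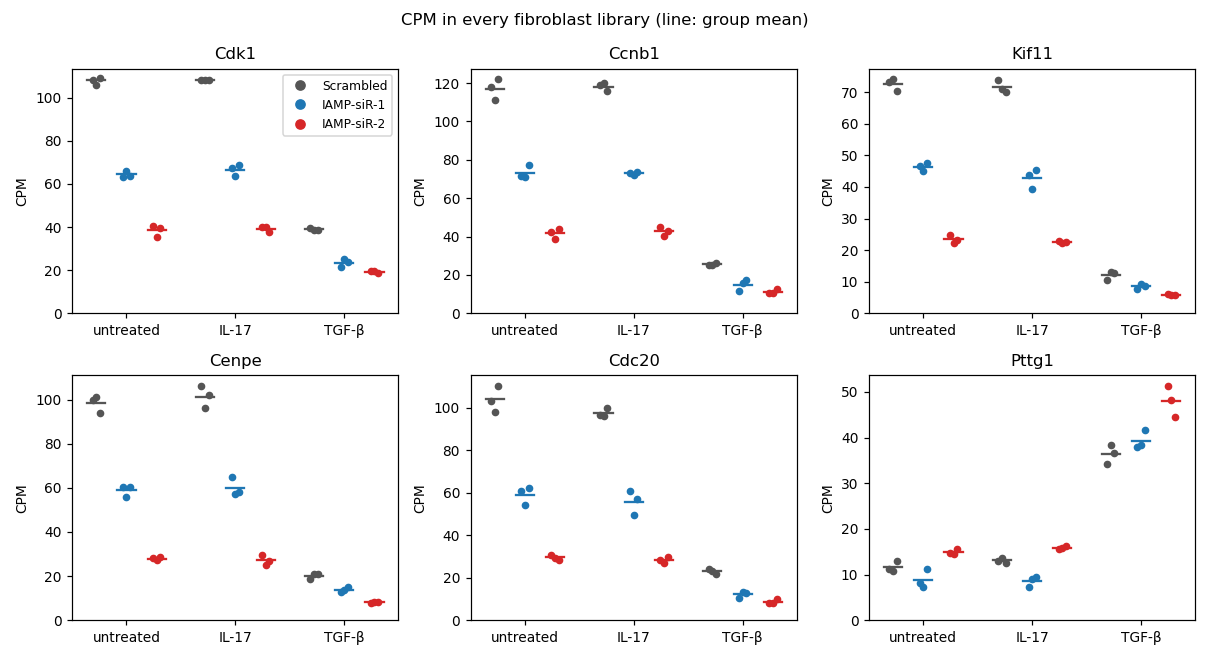
CPM of Cdk1, Ccnb1, Kif11, Cenpe, Cdc20 and Pttg1 in each of the 27 CF libraries, grouped by treatment on the x axis and coloured by siRNA, with a line at the mean of 3 libraries. The first 5 genes step down from Scrambled to siR-1 to siR-2 in each treatment, and Pttg1 is highest after siR-2 and higher in the TGF-β libraries (34.3 to 38.3 CPM with Scrambled) than in the untreated ones (10.8 to 12.9).

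Spindle, cytokinesis and chromosome genes fell in all 13 cases with each siRNA. Tpx2, which activates Aurora A on the spindle, was at 151, 158 and 153 CPM, 98.9, 94.1 and 97.6, and 46.7, 41.7 and 43.6. Prc1, the bundler of the central spindle, was at 189, 184 and 179 CPM, 111, 108 and 117, and 52.2, 48.9 and 50.6. Racgap1, a centralspindlin subunit, was at 116, 113 and 117 CPM, 58, 57 and 61.6, and 22.7, 17.2 and 21.3, and its siR-2 change of -2.50 ± 0.082 was second only to Nuf2 among the 50. The smallest siR-2 falls were those of Anln, an actin-binding protein of the cleavage furrow (-0.98), and of Gtse1, a microtubule-tip protein (-1.05). Top2a, the topoisomerase that untangles chromatids, was at 248, 250 and 249 CPM, 153, 149 and 163, and 83.2, 76.6 and 78.2. Mki67, which encodes the proliferation marker Ki-67, was at 273, 290 and 263 CPM, 155, 148 and 171, and 68, 64.5 and 67.1. No group overlapped another for either gene.

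With siR-2 against siR-1, 49 of 50 genes were lower (background 22.8%) and Pttg1 higher (22.7%), with a median of -0.85. IAMP itself was lower after siR-2 (-0.72 ± 0.115), and whether the depth of knockdown had a part in the difference was not tested. Both siRNA comparisons share the Scrambled libraries. Dividing by library totals in place of TMM moved the median of all genes to -0.116 for siR-1 and to -0.0869 for siR-2, and calls among all genes for siR-1 from 49% higher to 32.5% higher. The members' counts under that scale were 50 lower after siR-1 and 49 after siR-2. Summed cardiomyocyte markers also moved with the siRNAs, from 89.6 to 98 CPM with Scrambled to 41.5 to 46.7 and 27.2 to 32.4, which was the level of Tnnt2, since the other 4 of the 5 markers (Myh6, Actc1, Myl2 and Ttn) were at most 0.643 CPM. Summed macrophage markers were 54.3 to 58.6, 56.5 to 59.5 and 71.4 to 74.4 CPM. Fibroblast markers moved in opposite directions, from 9948 to 10131 CPM to 12690 to 12921 after siR-1 and 8644 to 8948 after siR-2. Epicardial markers were 60.9 to 64.7, 63.9 to 65.1 and 47.8 to 49.1 CPM, and pericyte and smooth muscle markers 57.9 to 66.6, 50.7 to 56.1 and 44.4 to 53.7. Their part in the result was not tested.

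Under IL-17 the siRNA effects had nearly the same sizes. All 50 genes were lower after siR-1 (background 21.9%), and 49 were lower after siR-2 (25.6%) with Pttg1 higher (25.0%). The medians were -0.70 and -1.65. Cdk1 was at 108 CPM in each Scrambled library, 67.2, 63.8 and 68.9 after siR-1 and 39.8, 40 and 37.7 after siR-2. Nuf2 again had the largest siR-2 change, from 48.6, 46.6 and 48.3 CPM to 7.73, 8.05 and 6.56 (-2.68), and Ccnb2 the largest siR-1 change, from 67, 67.5 and 66.1 to 30.3, 29 and 29.4 (-1.18). Pttg1 was at 12.9, 13.7 and 12.6 CPM with Scrambled, 7.29, 9.11 and 9.52 after siR-1 and 15.6, 15.7 and 16.3 after siR-2. Its 3 groups did not overlap here, but the siR-2 call (0.28, edgeR adjusted p = 0.011) was lost without Scrambled replicate 3 (0.0529) and on library totals (0.0629). For siR-2 against siR-1, 49 genes were lower and Pttg1 higher, against 23.1% of all genes in each direction.

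The difference between the IL-17 and untreated siRNA effects was tested in 1 fit of all 27 CF libraries. None of the 50 genes was called for siR-1 (background 1.73% in either direction) or for siR-2 (1.64%). With siR-1, 2 members had an unadjusted p under 0.05 and DESeq2 called 1, Ube2c, and after siR-2 neither count was above 0. The differences ran from -0.20 for Pttg1 to 0.24 for Ube2c after siR-1 and from -0.18 for Kif14 to 0.19 for Aurkb after siR-2 on the log2 scale. IL-17 and its table cannot be told apart, since the IL-17 libraries stand in 1 table with no untreated library. In Scrambled CFs, IL-17 against untreated gave 1 lower member (background 6.10%), Anln (-0.18 ± 0.0482), and 1 higher (6.13%), Kif23, a centralspindlin kinesin (0.25 ± 0.0707). Both calls were lost without IL-17 Scrambled replicate 1 (edgeR adjusted p 0.0506 and 0.0547), and Kif23 also without IL-17 Scrambled replicate 3 or untreated Scrambled replicate 1 (0.0742 and 0.0607). A replicate block ended both calls too (edgeR adjusted p 0.163 for Anln and 0.093 for Kif23).

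TGF-β and its table cannot be told apart, since every TGF-β library stands in 1 table with no untreated library. In Scrambled CFs of that table, 48 of 50 genes were lower than in untreated Scrambled CFs (background 27.5%), Pttg1 was higher (28.0%) and Ube2c was not called. The median log2 difference was -2.01, against 0.0188 for all genes. Mki67 differed most, at 22.1, 25.9 and 28.7 CPM against 273, 290 and 263 (-3.45 ± 0.0886). Cdk1 was at 39.7, 38.6 and 38.4 CPM, Kif11 at 10.6, 13 and 12.8, Cenpe at 18.7, 20.9 and 21, and Top2a at 48.8, 54.4 and 54.5, each below every untreated Scrambled library. Pttg1 went the other way, to 34.3, 38.3 and 36.6 CPM (1.62 ± 0.109, edgeR adjusted p = 8.97e-13). Ube2c, at 56.3, 61.2 and 56.1 CPM against 58.7, 56 and 61, differed by -0.04 ± 0.0511, and Gtse1, at 68.6, 66.1 and 68.6, by -0.23 ± 0.0448. Marker lists moved as well. Summed cardiomyocyte markers, mostly Tnnt2, were 4.85 to 5.47 CPM in these libraries against 89.6 to 98, epicardial markers 25 to 29.9 against 60.9 to 64.7, and pericyte and smooth muscle markers 42.2 to 43.4 against 57.9 to 66.6. Endothelial markers were 94.3 to 95.6 CPM against 57 to 62.8, macrophage markers 151 to 159 against 54.3 to 58.6, and fibroblast markers 15327 to 15931 against 9948 to 10131. Single markers went against these sums over all libraries of the TGF-β and untreated tables. Pdgfra was at 121 to 196 CPM against 344 to 473, and Tcf21 at 87.4 to 123 against 159 to 200. Kdr was at 2.06 to 3.02 against 3.34 to 6.98, Rgs5 at 6.35 to 9.18 against 0.897 to 1.76, and Wt1 at 0.708 to 1.87 against 0 to 0.591. Csf1r overlapped (10.3 to 17.1 against 9.2 to 21.6). The part of the markers in the difference was not tested.

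**Figure D3:**
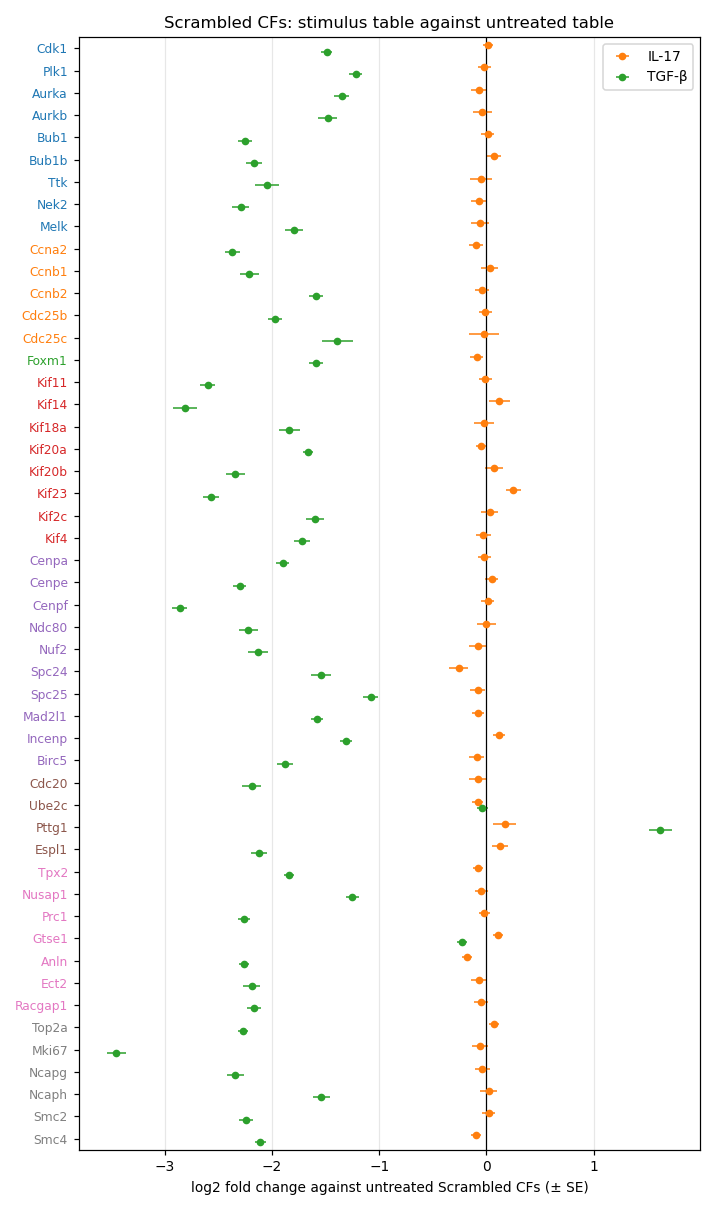
Log2 fold change of the 50 genes in Scrambled CFs of the IL-17 (orange) and TGF-β (green) tables against untreated Scrambled CFs, ± SE from edgeR, 3 libraries a group, gene names coloured by role. IL-17 points lie between -0.26 and 0.25, while TGF-β points lie far left of 0 except for Ube2c, Gtse1 and Pttg1 (1.62).

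Within the TGF-β table, 45 of 50 genes were lower after siR-1 (background 11.4%), and 49 after siR-2 (14.8%) with Pttg1 higher (15.1%). The medians were -0.54 and -1.03. Plk1 had the largest change with both, from 39.9, 39.2 and 40.4 CPM to 17.4, 19.2 and 19.6 after siR-1 (-1.09 ± 0.0705) and to 15.2, 12.7 and 15.2 after siR-2 (-1.47 ± 0.0715). Cdc20 was at 24.1, 23 and 21.9 CPM, 10.5, 13.1 and 13, and 7.87, 7.93 and 9.96. These genes had separate siRNA and Scrambled groups. The 5 genes not called after siR-1 were Ttk (-0.18), Kif14 (-0.36), Kif20b (-0.28), Smc2 (-0.21) and Pttg1 (0.11), whose edgeR adjusted p ran from 0.0585 to 0.305. Espl1 was called after siR-1 (-0.36, adjusted p = 0.0214) but not without Scrambled replicate 1 or 2 or siR-1 replicate 2 (0.0738 to 0.119). Pttg1 was at 38, 38.4 and 41.6 CPM after siR-1 and 51.4, 48.3 and 44.5 after siR-2, above every Scrambled library (0.40 ± 0.0613, adjusted p = 7.05e-05).

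For siR-2 against siR-1 under TGF-β, 45 genes were lower (12.0%) and Pttg1 higher (12.0%), and the groups overlapped for Aurkb, Ccnb1, Cdc25c and Kif20a. The siRNAs were closest for Kif20a (-0.11 ± 0.063, edgeR adjusted p = 0.261). Leaving out 1 library ended the call of Aurkb in 7 cases and of Ccnb1 in 5 (adjusted p 0.0505 to 0.181), and the count of lower genes ranged from 39 to 45 over the libraries left out.

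The siR-2 effect was smaller in size under TGF-β than in untreated CFs for 44 of 50 genes (background 14.2% higher, 15.3% lower among all genes), with none in the other direction. The median difference of the log2 fold changes was 0.50 for the members and 0.0197 for all genes. It was largest for Racgap1 (1.21 ± 0.091), Nuf2 (1.15 ± 0.129) and Mki67 (1.01 ± 0.119), and it was 0.56 for Kif11, 0.69 for Foxm1 and 0.37 for Cdc20, whose call was lost without TGF-β Scrambled replicate 3, TGF-β siR-2 replicate 3 or untreated Scrambled replicate 3 (edgeR adjusted p 0.0622 to 0.107). Each of the 9 kinases and 10 kinetochore and centromere genes was called, 6 of 8 kinesins, and 3 of 4 anaphase and exit genes, the exception being Pttg1 (0.03 ± 0.151). For siR-1 the difference was called in fewer genes, 12 higher (9.20%) and 1 lower (10.3%). The 12 held 4 of the 6 chromosome structure genes and none of the 8 kinesins, with Ttk (0.55), Gtse1 (0.54), Pttg1 (0.50) and Ccna2 (0.49) the largest. The Pttg1 call was lost without any of 5 libraries, TGF-β Scrambled replicate 1, TGF-β siR-1 replicate 3, untreated Scrambled replicate 3 and untreated siR-1 replicates 1 and 2 (edgeR adjusted p 0.0525 to 0.0686). The lower one, Prc1 (-0.22 ± 0.0763, adjusted p = 0.0435), was not called by DESeq2 (0.0504) or on library totals (0.235), nor without 16 of the libraries left out in turn. Dividing by library totals moved calls among all genes for the siR-1 difference from 47% higher to 66.9% higher, and the members called higher to 19. The IAMP fall was also smaller under TGF-β, by 0.73 ± 0.153 after siR-1 and 1.02 ± 0.157 after siR-2, and its part in these differences was not tested.

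In hearts, 34 of the 50 genes passed the filter on low counts and none was called between KO and HET, as was none of the 16675 genes tested (0%). DESeq2 called 5 genes in all and none of the members, and 3 members had an unadjusted p under 0.05 in edgeR: Tpx2 (-0.65 ± 0.207), Ube2c (-0.54 ± 0.242) and Smc2, a condensin subunit (-0.48 ± 0.205). These 3 members held only 14 to 51 counts in a heart, and the share of all genes under that p was not computed. Tpx2 was at 1.38, 0.958, 1.32 and 0.882 CPM in HET and 0.869, 0.676, 0.74 and 0.604 in KO, with no overlap, and its edgeR adjusted p was 1. Ube2c was at 2.09, 1.26, 1.36 and 1.04 CPM and 1.04, 1.14, 1.07 and 0.69, so its groups overlapped. The summed level of the 50 genes was 150 ± 8.78 CPM in HET and 145 ± 5.56 in KO (SD, n = 4), in a table scaled separately from those of the CFs.

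Pttg1 had the highest level per kilobase of exon in HET hearts, 32.8 CPM per kilobase, ahead of Cenpa at 4.44 and Smc4 at 1.52. In untreated Scrambled CFs the order began with Cdc20 (55.5), Ccnb2 (45) and Plk1 (41.7), and Pttg1 was at 5.84. Pttg1 was at 63.2, 65.1, 72.4 and 62 CPM in HET and 64.4, 62.9, 69.5 and 64.3 in KO, a log2 difference of -0.01 ± 0.058. Cenpa was at 21.8, 28.1, 27.3 and 26.9 CPM in HET and 24.5, 24.2, 23.7 and 26.3 in KO. Mki67 was at 3.56, 2.09, 2.21 and 1.4 CPM in HET and 1.74, 1.86, 1.89 and 1.73 in KO. The groups overlapped for all 3. Cdk1 had counts of 0 in 2 HET hearts, which at 3 counts allows up to 0.131 and 0.12 CPM, and 0.594 and 0.921 CPM in the others. These floors cover counting error only.

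**Figure D4:**
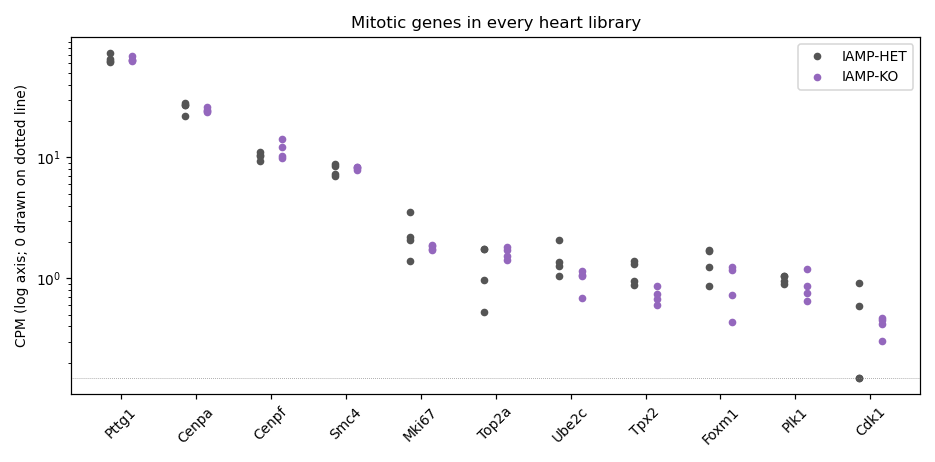
CPM, on a log axis, of 11 genes in each of the 4 HET (grey) and 4 KO (purple) hearts, values of 0 drawn on the dotted line. Pttg1 lies at 62 to 72.4 CPM and Cenpa at 21.8 to 28.1 in both genotypes, and of the genes drawn only Tpx2 has separate groups.

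Beyond the 50 genes, a list of 86 other mitotic genes had 77 lower and 3 higher after siR-1 in untreated CFs (median -0.67), against 20.4% lower and 19.5% higher among all genes. After siR-2 the counts were 81 lower and 1 higher (median -1.49), against 25.0% and 24.4%. Cdkn3 (-1.29) and Ska1 (-1.17) changed most after siR-1, and Aspm (-2.74) and Depdc1b (-2.21) after siR-2. Of 24 regulators of mitotic genes, such as E2F and pocket proteins, 17 were lower after siR-1 and 0 higher, against 20.4% and 19.5% of all genes. With siR-2, 14 were lower and 4 higher, against 25.0% and 24.4% of all genes. E2f2 (-1.27) and E2f8 (-0.90) changed most after siR-1, and E2f7 (-2.03) and E2f2 (-1.62) after siR-2. The anaphase-promoting complex, the ligase that CDC20 and UBE2C serve, was represented by 14 subunits, with called genes in both directions. With siR-1, 6 were lower and 4 higher (median -0.04), against 20.4% and 19.5% of all genes. Anapc15 changed by 0.58 and Anapc11 by -0.50. With siR-2, 8 were lower and 1 higher (median -0.19), against 25.0% and 24.4% of all genes. Anapc11 changed by -0.79 and Anapc5 by -0.72. In Scrambled CFs of the TGF-β table, 81 of the 86 other mitotic genes were lower than in untreated CFs and 0 higher, against 27.5% lower and 28.0% higher among all genes. Of the 24 regulators 16 were lower and 7 higher, and of the 14 subunits 6 were lower and 5 higher, beside the same shares of all genes.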

How the data were processed

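The authors trimmed reads with Cutadapt, aligned them to GRCm38 with HISAT2 and quantified genes with StringTie, per the labels and the study's methods, and whether counting used strand is not given in the sources used here. The deposited CF tables hold whole numbers, not normalized, read here from their values as estimated counts of the kind StringTie output gives, and the deposited heart table holds raw counts per gene. CPM, TMM factors and the tests were computed here with edgeR 4.0.16 in R 4.3.3 (filterByExpr, robust quasi-likelihood test, Benjamini-Hochberg over all genes tested). Each CF table was fitted alone. Stimuli were compared in 1 fit of all 27 CF libraries. Estimated counts were used as whole numbers. Scripts were tested on simulated data. Heart columns name a genotype and an animal number that no sample label holds, so replicate numbers there are only names. The members and lists were chosen with earlier results of these data known. Values in every library are given for a set covering the roles, for the member with the largest change and for members called against the majority. Of the 55487 gene identifiers, 55141 were in GENCODE vM21, which gave exon lengths and overlaps. Promoters are from RefSeq (GRCm38.p6). Alternatives were DESeq2 1.42.0, other scalings, no filter, fold minimums, leaving out each library, the 2 groups alone, a replicate block and estimated counts divided by 6.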

Additional observations from a re-analysis of the deposited data

Results flagged for a closer look

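The siRNA effects on the mitotic genes differed between TGF-β and untreated CFs in the test of the difference itself. For siR-2, 44 of the 50 genes had a higher (smaller) effect under TGF-β, among them Racgap1 (difference 1.21), Nuf2 (1.15), Mki67 (1.01), Foxm1 (0.69), Kif11 (0.56) and Cdc20 (0.37). For siR-1, 12 genes had a higher effect, among them Ttk (0.55), Gtse1 (0.54), Pttg1 (0.50) and Ccna2 (0.49), and 1 had a lower one, Prc1 (-0.22). TGF-β and its table cannot be told apart.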

How the results depend on the processing

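Of 5449 values of 27 named genes under the alternatives, 5369 kept their side of the threshold, 67 lost it, 13 gained it and none changed direction. Setting an absolute log2 fold minimum of 1 left 3 lower members for siR-1 in untreated CFs, 4 under IL-17 and 2 under TGF-β (18 at the smaller minimum, a 1.5-fold change), and 29 for siR-2 under TGF-β. For siR-2 against siR-1 it left 14, 17 and 0 lower members (12 under TGF-β at the smaller one), and 0 higher. At either minimum 0 members were higher for siR-2 under any treatment, 0 differed between IL-17 and untreated Scrambled CFs, and 0 differed in the siR-1 effect under TGF-β. The siR-2 effect then differed in 19 at the smaller and 3 at the larger. The shares of all genes past either minimum were not computed, so these counts have no background. On library totals 0 were higher for siR-2 in untreated and IL-17 CFs, and the siR-1 difference under TGF-β had 19 higher and 0 lower (also 0 lower with DESeq2 and RLE size factors). Library totals moved the share of calls among all genes that were higher from 48.1 to 31.2% (IL-17 siR-1), 50.4 to 35.2% (TGF-β siR-2) and 49.9 to 39.3% (TGF-β siR-2 against siR-1). DESeq2 gave 2 lower for IL-17 against untreated, as did division by 6, and 1 higher for the IL-17 siR-1 difference. Leaving out single libraries gave 0 to 1 higher for siR-2 in untreated and IL-17 CFs, 0 to 2 lower and 0 to 1 higher for IL-17 against untreated, and 0 to 2 lower for the TGF-β siR-1 difference. Same-numbered CF libraries did not all deviate together (correlations -0.44 to 0.17 within tables, -0.31 to 0.27 between them), so the libraries are taken to share only a number. With a replicate block the counts for IL-17 against untreated Scrambled CFs were 0 lower and 0 higher, the siR-1 count under TGF-β 46 lower and the siR-2 difference 46 higher, the other counts being the same. No paired analysis was possible for hearts because their columns carry no replicate number. The causes were not tested. In CFs a single read pair appears, from the values, to stand for up to 6 estimated counts, so depth may be less than the totals show.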
